A study of Mus musculus with 3 samples.

Results

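The glycolysis and hypoxia response genes examined here are a list of enzymes that break glucose down to pyruvate and lactate, regulators of the entry of pyruvate into the mitochondrion, and genes of the cellular response to low oxygen. The list holds 39 genes chosen by function, and a gene was kept where a probe set carried its symbol alone. If there were several, the set of highest mean level over the 3 arrays stood for it. This left 36 members of the 19935 genes measured. Gapdh lay only in probe sets shared by several genes, and Gpi1 and Eno1 had no probe set of their own in the annotation used, so these 3 genes were not analysed here.

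The cells were NMuMG, an epithelial line from the mammary gland of the mouse, kept in D-MEM with serum and puromycin. The mock group was 1 array of cells with the vector pCAGIP, and the MAFK group was 2 arrays, 1 each from the stable lines named clone 4 and clone 10, which carry pCAGIP-FLAG-MafK. MAFK is a small MAF protein, a leucine zipper factor that binds DNA but has no activation domain. Each MAFK line is a single clone, and the labels do not say that the mock cells are one, so MAFK and clonal origin cannot be told apart. The p-values rest on the spread between the clones, in the gene itself and, through a shared prior, in other genes. They hold no spread of mock. Values are log2 RMA levels, and a difference is a clone's level minus that of mock.

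Glycolysis splits glucose into pyruvate through a chain of enzymes, most of which exist as several isoenzymes that differ between tissues. Pyruvate is then either reduced to lactate by lactate dehydrogenase or oxidised by the pyruvate dehydrogenase complex, which the PDK kinases switch off by phosphorylation. In low oxygen the factors HIF-1α and HIF-2α, otherwise marked for destruction by the EGLN prolyl hydroxylases, pair with ARNT and raise the transcription of many glycolytic genes and of genes for mitophagy, matrix hydroxylation and chromatin demethylation.

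The arrays gave few facts that bear on the labels. The Mafk probe set read 8.49 in mock against 8.74 in clone 4 and 8.59 in clone 10, and whether it detects the transgene was not tested. Of the 10 epithelial markers 4 lay above the median of all array values (6.91) on every array, among them Krt8, Krt18 and Krt19, while Epcam read 5.58 throughout and Cdh1 fell from 11.35 to 6.85 and 6.64 (limma adjusted p = 0.0282). The mean level of the epithelial list was 8.68 in mock against 8.17 in clone 4 and 8.15 in clone 10, a difference carried largely by Cdh1. Both clones lay above mock in 4 of these markers and below it in 3, with median differences of 0.0000 and 0.0036. The corresponding means were 6.42, 6.62 and 6.59 for 7 fibroblast markers, 5.96, 5.98 and 6.01 for 6 endothelial markers and 6.27, 6.31 and 6.38 for 6 immune markers, of which 2, 0 and 1 lay above that median on every array. The part of these marker differences in the results was not tested, and fewer cells of a type and less RNA per cell cannot be told apart in such bulk RNA.

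Because the members are read against a pathway driven through DNA elements, the promoters of 5 of them are shown: Eno2, Ldhb and Pdk1, the 3 members that differed from mock by 2-fold or more in both clones, Bnip3, and Ldha, whose level was nearly the same on all arrays. Bnip3 and Ldha were chosen after their values were seen. Each is the 250 bases before the most upstream start in RefSeq, 5′ to 3′ on the gene's strand, build GRCm38.p6, and capitals mark ACGTG or GCGTG on either strand, the letters at the core of hypoxia response elements.
Eno2: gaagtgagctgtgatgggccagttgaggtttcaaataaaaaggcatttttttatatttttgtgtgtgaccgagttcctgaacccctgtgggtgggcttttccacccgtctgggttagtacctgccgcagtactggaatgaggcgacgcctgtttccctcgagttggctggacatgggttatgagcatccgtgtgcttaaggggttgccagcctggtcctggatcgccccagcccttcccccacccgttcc
Ldhb: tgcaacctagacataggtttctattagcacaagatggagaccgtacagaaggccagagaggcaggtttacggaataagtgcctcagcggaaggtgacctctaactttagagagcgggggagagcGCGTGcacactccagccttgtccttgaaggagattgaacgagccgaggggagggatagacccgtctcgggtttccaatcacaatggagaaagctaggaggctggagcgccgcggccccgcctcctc
Pdk1: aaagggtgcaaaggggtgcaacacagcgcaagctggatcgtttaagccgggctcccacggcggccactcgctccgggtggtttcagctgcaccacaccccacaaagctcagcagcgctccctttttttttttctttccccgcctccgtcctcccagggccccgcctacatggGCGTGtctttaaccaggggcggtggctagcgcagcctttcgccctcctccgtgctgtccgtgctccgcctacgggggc
Bnip3: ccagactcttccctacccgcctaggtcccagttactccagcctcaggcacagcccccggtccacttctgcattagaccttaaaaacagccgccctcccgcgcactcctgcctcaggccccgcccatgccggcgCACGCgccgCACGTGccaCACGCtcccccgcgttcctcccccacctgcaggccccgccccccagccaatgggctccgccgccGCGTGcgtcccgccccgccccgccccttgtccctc
Ldha: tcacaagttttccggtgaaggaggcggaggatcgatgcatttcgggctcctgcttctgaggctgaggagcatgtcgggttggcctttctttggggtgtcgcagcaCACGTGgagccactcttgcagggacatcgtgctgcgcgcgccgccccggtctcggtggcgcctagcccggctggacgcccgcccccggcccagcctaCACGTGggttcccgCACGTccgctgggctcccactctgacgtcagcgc

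These windows lie at chr6:124769674-124769923 (Eno2, minus strand), chr6:142507958-142508207 (Ldhb, minus), chr2:71872974-71873223 (Pdk1, plus), chr7:138909507-138909756 (Bnip3, minus) and chr7:46845554-46845803 (Ldha, plus). The Eno2 window held neither core, and those of Ldhb and Pdk1 held 1 GCGTG each. The Bnip3 window held 2 matches to ACGTG and 3 to GCGTG, and the Ldha window 5 to ACGTG, where a palindromic CACGTG counts once on each strand. Whether these matches bear on the levels of the 5 genes was not tested.

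Of the 36 members, 33 had a window in the RefSeq table, and in the same 250 bases before the start 27 of these (81.8%) held ACGTG or GCGTG, beside 46.4% of the 15612 measured genes with a window and 38.6% of all 27025 genes in the table. Both cores contain a CpG, and the windows were not matched for base composition. TGACNNNGC, the core of the antioxidant response element that small MAF and CNC proteins bind as partners, was found in 3 member windows (9.09%), those of Arnt, P4ha1 and Adm, against 10.9% of measured genes with a window. TGCTGAC, an extended MAF recognition sequence, was in none of the 33 and in 3.43% of measured genes. A match is a description of letters and not a binding site.

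The comparison of MAFK with mock asked which genes differ in cells that carry FLAG-tagged MAFK. Among the members, Eno2, Ldhb and Pdk1 exceeded mock by 2-fold or more in both clones and none was 2-fold lower, where 1.19% and 1.81% of all genes were. Ldhb did so by its chosen probe set and not by its other. Only Eno2 also passed limma at an adjusted p under 0.05 and is said to have risen. None fell. Over all genes 0.401% rose and 0.762% fell by these criteria, and 1.16% passed limma in either direction. At an unadjusted p under 0.05 limma marked 9 members higher and 2 lower (30.6% of members), where 9.2% and 8.26% of all genes were (17.5% in all). Limma with its prior from all genes passed 8 members higher and 2 lower (27.8%), where 11.2% and 6.59% of all genes were (17.8% in all). After a second quantile normalization limma passed 5 members (13.9%), where 11.4% of all genes were passed.

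In both clones 22 of the 36 members (61.1%) lay within 1.2-fold of mock, against 77.3% of all genes. The value was the same on all 3 arrays in 5 members (13.9%), against 34.3% of all genes, and such genes cannot pass limma on the deposited values. The median difference of the members was 0.01 in clone 4 and 0.02 in clone 10, beside 0 in both over all genes. The mean was 0.23 and 0.20, beside 0.01 and 0.01. The largest single difference in the members' means was that of Ldhb, at 3.65 in clone 4 and 2.05 in clone 10. With the arrays centred on the median the members' medians turned negative, at -0.0325 and -0.0300. Both clones lay above mock in 15 members and below it in 6, against 33.7% and 17.9% of all genes. With a threshold of 1.5-fold in both clones, 7 members were higher (Pfkm, Eno2, Ldhb, Pdk1, Pdk3, Egln1 and Bnip3) and 1 lower (Pfkfb3), where 2.54% and 3.63% of all genes were.

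**Figure D1:**
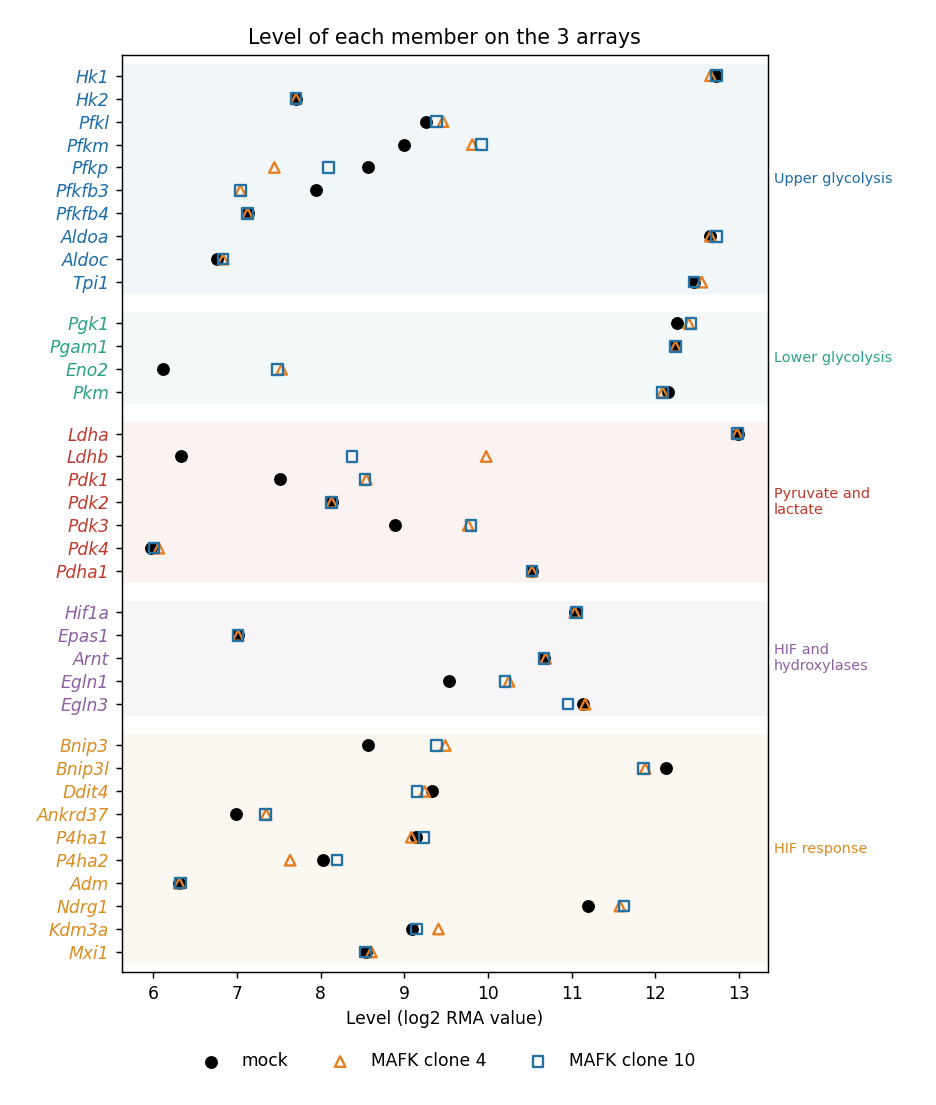
Level of each of the 36 members (vertical axis, grouped by role) on the mock array (filled circles), clone 4 (triangles) and clone 10 (squares), as log2 RMA values (horizontal axis). Most symbols coincide, while in Ldhb mock reads 6.33 and clone 4 reads 9.98.

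**Figure D2:**
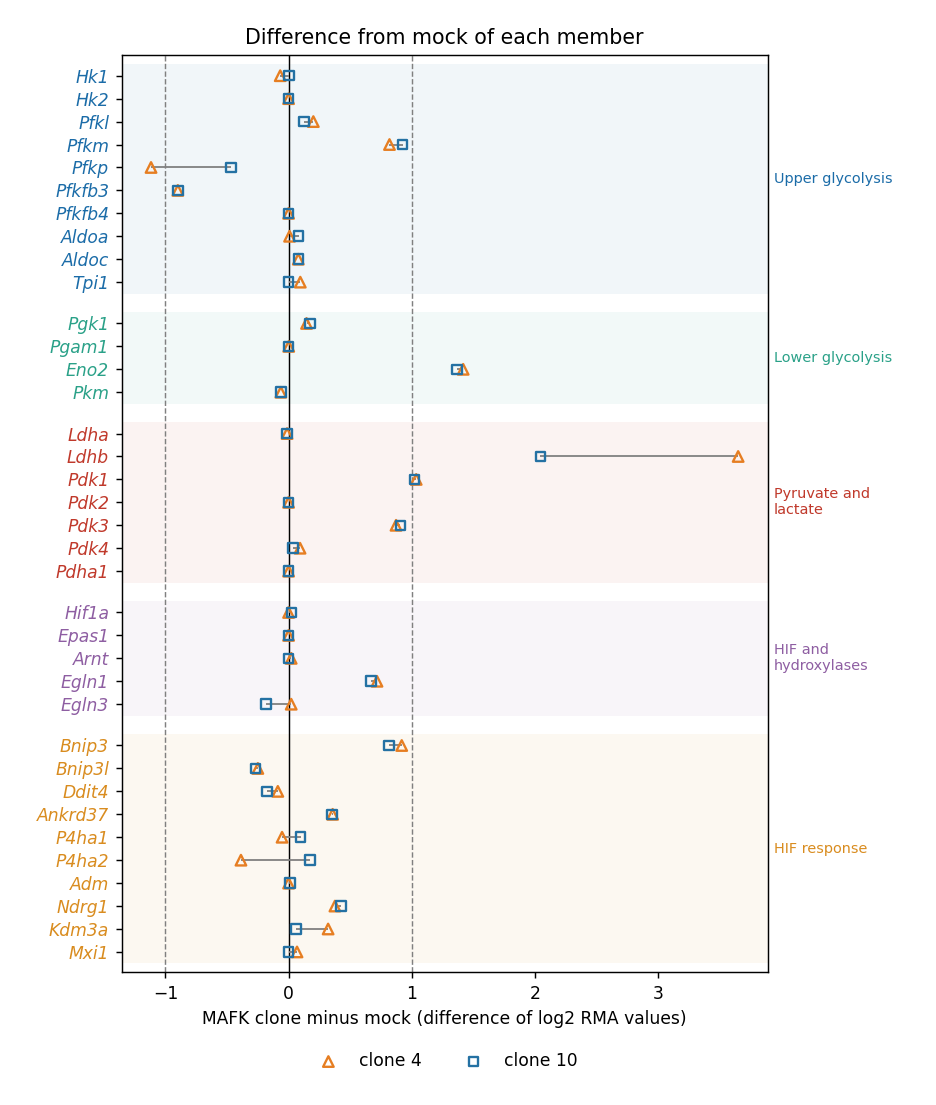
Level in clone 4 (triangles) and clone 10 (squares) minus the level in mock for each member, in log2 RMA units, with dashed lines at a 2-fold difference and a grey line joining the clones. Eno2, Ldhb and Pdk1 lie beyond the dashed line in both clones, and Pfkp does so on the lower side in clone 4 alone.

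The enzymes of upper glycolysis, from the phosphorylation of glucose to the triose phosphates, held no member that rose or fell among the 10 measured. At an unadjusted p under 0.05 limma marked 1 higher and 1 lower, and limma with its prior from all genes passed the same numbers, a share of 20% beside 17.5% and 17.8% of all genes. The hexokinase genes, whose products trap glucose in the cell, read nearly the same on all arrays: Hk2 read 7.70 on every array, and Hk1 read 12.73 in mock against 12.66 in clone 4 and 12.73 in clone 10. The aldolase genes Aldoa and Aldoc and the triose phosphate isomerase gene Tpi1 lay within 0.1 of mock in both clones.

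The 3 phosphofructokinase genes encode the subunits of the committed enzyme of glycolysis, and their values went in different directions. Pfkm, the muscle-type subunit gene, read 8.99 in mock against 9.81 in clone 4 and 9.92 in clone 10, so that both clones lay above mock by amounts close to each other. Its mean difference was 0.87 ± 0.09 (SE), 1.83-fold, with a limma adjusted p of 0.0835. Pfkp, the platelet-type subunit gene, read 8.56 in mock against 7.45 in clone 4 and 8.09 in clone 10. Both clones were below mock, but clone 4 by 1.12 and clone 10 by 0.47, and the limma adjusted p was 0.420. Pfkl, the liver-type subunit gene, read 9.26, 9.46 and 9.39 in mock, clone 4 and clone 10. The log2 ratio of Pfkm to Pfkp was accordingly larger than in mock by 1.94 in clone 4 and 1.40 in clone 10, a shift that was not tested on its own.

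The bifunctional enzymes of the PFKFB family set the level of fructose 2,6-bisphosphate, the strongest activator of phosphofructokinase. Pfkfb3, a gene of this family, read 7.94 in mock and 7.04 in each clone. It was 1.87-fold lower (-0.90 ± 0.07, SE) with a limma adjusted p of 0.0643, and since its clones had the same value its standard error was the smallest the fit gives. Pfkfb4 read 7.13 on every array. Of the family members outside the list, Pfkfb2 read 9.04 in mock against 8.03 in clone 4 and 8.24 in clone 10 (limma adjusted p = 0.123).

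Lower glycolysis, which yields ATP and pyruvate, held the 1 member that rose. Eno2, which encodes the gamma enolase best known from neurons, read 6.11 in mock against 7.53 in clone 4 and 7.48 in clone 10. The clones lay close together, and both above the median of all array values, while mock lay below it. The mean of 7.51 ± 0.03 (SD, n = 2) was 2.63-fold above mock, a difference of 1.39 ± 0.07 (SE) with a limma adjusted p of 0.0430. Without genes of low level the limma adjusted p of Eno2 was 0.0541, and with a minimum fold of 1.2 in the test it was 0.0507. Over all alternatives fitted it ranged from 0.0258 to 0.0541. The low-level filter goes by the mean of the 3 arrays (cut at 6.91), so Eno2, at 6.11 in mock, was kept only through its clones.

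The other 3 measured members of lower glycolysis lay within 1.2-fold of mock. Pgk1, the gene of the first enzyme to make ATP in the pathway, read 12.25 in mock against 12.40 in clone 4 and 12.43 in clone 10 (limma adjusted p = 0.442). The mutase gene Pgam1 read 12.24 on all arrays, and Pkm, which encodes the pyruvate kinase of most proliferating cells, read 12.15 in mock and 12.09 in each clone. For Pkm the 95% limma interval of the difference ran from -0.29 to 0.16, and such intervals are narrow where clones had equal values.

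Lactate dehydrogenase is a tetramer of A and B subunits, and the clones differed from mock in the gene of the B subunit. Of the 7 members on the fate of pyruvate none passed limma, against 3 higher at an unadjusted p under 0.05 (9.2% of all genes) and 2 higher by limma with its prior from all genes (11.2% of all genes). Ldha, the gene of the A subunit and a standard HIF target, read 12.99 in mock against 12.98 in clone 4 and 12.98 in clone 10, with a 95% limma interval of -0.23 to 0.21. Ldhb, the gene of the B subunit that prevails in oxidative tissues, read 6.33 in mock against 9.98 in clone 4 and 8.37 in clone 10. Both clones lay far above mock, by 12.6-fold in clone 4 and 4.13-fold in clone 10, but they also differed from each other by 1.61. This spread gave a difference of 2.85 ± 0.82 (SE), an unadjusted p of 0.0413 and a limma adjusted p of 0.263. The log2 ratio of Ldhb to Ldha was higher than in mock by 3.66 in clone 4 and 2.06 in clone 10.

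Ldhb had 2 probe sets, which gave the same direction at different sizes. The set with the lower mean read 7.16 in mock against 9.00 in clone 4 and 7.99 in clone 10, differences of 1.84 and 0.83. By that set Ldhb was not 2-fold apart in both clones. In mock alone it was the higher set (7.16 against 6.33), so the levels of the clones decided which set stood for the gene. The gene table also lists a pseudogene, Ldhb-ps, on chromosome 19, whereas Ldhb is on chromosome 6, and to which locus each set was designed was not analysed here.

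**Figure D3:**
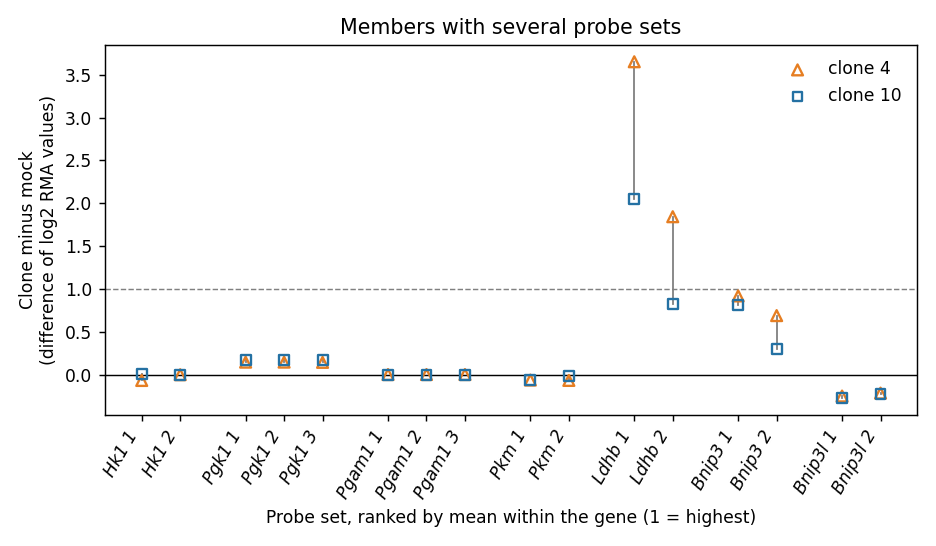
Level in clone 4 (triangles) and clone 10 (squares) minus mock, in log2 RMA units, for every probe set of the 7 members with more than 1, ranked by mean within the gene. Both sets of Ldhb lie above mock in both clones, at 3.65 and 2.05 for the first and 1.84 and 0.83 for the second.

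Pyruvate dehydrogenase kinases turn pyruvate away from the mitochondrion, and of the 4 genes 2 were more than 1.5-fold higher in both clones. Pdk1, the isoenzyme gene most often named as a HIF-1 target, read 7.51 in mock against 8.55 in clone 4 and 8.53 in clone 10. It was 2.04-fold higher, just past the 2-fold line (1.03 ± 0.07, SE), with a limma adjusted p of 0.0561. Its mean difference fell under that line with the arrays centred on the median (0.98) and with the shift of its chromosome subtracted (0.97). Pdk3, an X-linked gene, read 8.89 in mock against 9.76 in clone 4 and 9.80 in clone 10. The difference of 0.89 ± 0.07 (SE), 1.85-fold, had a limma adjusted p of 0.0684.

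The remaining kinase genes and the gene of their substrate lay within 1.2-fold of mock. Pdk2 read 8.13 on every array, Pdk4, a fasting-induced isoenzyme gene, read 5.97, 6.07 and 6.01 in mock, clone 4 and clone 10, and Pdha1, which encodes the phosphorylated subunit of the complex, read 10.53 on every array. The log2 ratio of Pdk1 to Pdk2 was larger than in mock by 1.04 in clone 4 and 1.02 in clone 10, and that of Pdk3 to Pdk2 by 0.87 and 0.91.

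Of the 5 genes of the oxygen-sensing machinery 4 lay within 1.2-fold of mock in both clones, and Egln1 was higher. None passed limma, against 1 at an unadjusted p under 0.05 and 1 by limma with its prior from all genes, a share of 20% beside 17.5% and 17.8% of all genes. Hif1a read 11.04 in mock against 11.04 in clone 4 and 11.06 in clone 10, Epas1, which encodes HIF-2α, read 7.01 on all arrays, and Arnt read 10.67, 10.69 and 10.67. The 95% limma intervals of the Hif1a and Arnt differences ran from -0.21 to 0.24. Their standard errors, 0.0698 each, were close to the smallest the fit gives (0.0690). Mock was measured once, so these intervals cannot exclude a change. HIF-α is controlled mainly through protein stability, which arrays do not measure. Egln1, the gene of the main prolyl hydroxylase PHD2 and itself induced by HIF, read 9.53 in mock against 10.25 in clone 4 and 10.20 in clone 10. It was 1.62-fold higher (0.69 ± 0.07, SE) with a limma adjusted p of 0.0896. Egln3, another HIF-induced hydroxylase gene, read 11.14, 11.16 and 10.96.

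Egln1 and Ankrd37 lie on chromosome 8, whose 955 measured genes had a mean difference of 0.12 in each clone. The part of this chromosome-wide shift in the 2 genes was not tested. With the shift subtracted the difference of Egln1 was 0.58 (limma adjusted p = 0.115), beside 0.69 (limma adjusted p = 0.0896) without. The X chromosome, with Pdk3, had mean differences of 0.02 in both clones. Chromosome 14, with Bnip3l, had mean differences of -0.165 in clone 4 and -0.0756 in clone 10. The part of that shift in Bnip3l was not tested.

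None of the 10 HIF response members rose or fell. At an unadjusted p under 0.05 limma marked 3 higher and 1 lower, and limma with its prior from all genes passed the same numbers, 4 of 10 genes beside 17.5% and 17.8% of all genes. Bnip3, a mitophagy receptor gene, read 8.57 in mock against 9.49 in clone 4 and 9.38 in clone 10. Both clones exceeded mock, by 0.87 ± 0.09 (SE) on average or 1.82-fold (limma adjusted p = 0.0835). Its second probe set read 8.01, 8.70 and 8.31, so that clone 10 was 0.30 above mock there. Its relative Bnip3l, also a mitophagy receptor gene, read 12.13 in mock against 11.88 in clone 4 and 11.86 in clone 10 (limma adjusted p = 0.245), below mock in both clones. The log2 ratio of Bnip3 to Bnip3l was thus larger than in mock by 1.17 and 1.09.

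Differences under 1.5-fold, close to each other in size, were seen in Ndrg1 and Ankrd37. Ndrg1, a stress-response gene, read 11.20 in mock against 11.57 in clone 4 and 11.63 in clone 10 (limma adjusted p = 0.162). Ankrd37, an ankyrin repeat gene, read 6.99, 7.35 and 7.34 (limma adjusted p = 0.173).

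Both clones also lay below mock in Ddit4 and above it in Kdm3a, and in the other 4 response genes the clones disagreed in sign or 1 of them equalled mock. Ddit4, an inhibitor gene of the mTORC1 pathway, read 9.33, 9.24 and 9.15 in mock, clone 4 and clone 10. Of the collagen prolyl hydroxylase genes, P4ha1 read 9.14, 9.08 and 9.23, and P4ha2 read 8.02, 7.63 and 8.19. In P4ha2 clone 4 lay below mock and clone 10 above it. The histone demethylase gene Kdm3a read 9.09, 9.41 and 9.14, with clone 4 farther above mock. The peptide hormone gene Adm read 6.31, 6.31 and 6.32, and Mxi1, which encodes an antagonist of MYC, read 8.54, 8.60 and 8.54.

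The clones share the mock array, so their differences from it are not independent. They had equal values in 8 of 36 (22.2%), where 55.5% of all genes did, and the gap between them was widest in Ldhb (1.61), followed by Pfkp (0.65) and P4ha2 (0.56). In Pfkp and P4ha2 clone 4 had the lower value, and in Ldhb the higher. With 1 array a clone these gaps have no test.

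**Figure D4:**
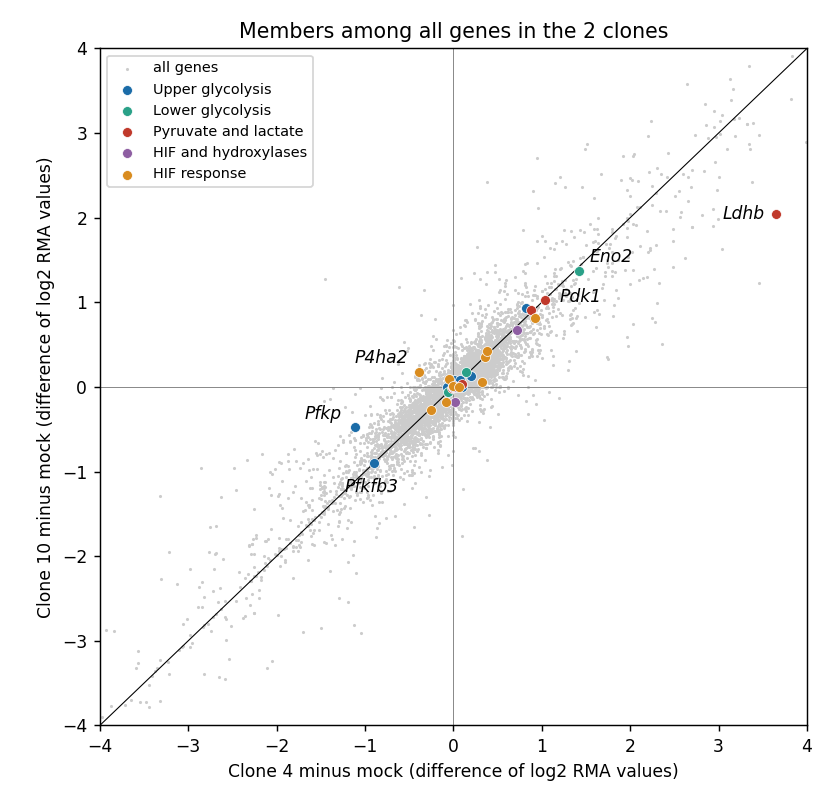
Difference from mock in clone 4 (horizontal axis) against clone 10 (vertical axis), in log2 RMA units, for all genes (grey) and the members (coloured by role), with the line of equal values. The axes leave out 30 genes. Most members sit near 0, Eno2 and Pdk1 lie on the line above 1, and Ldhb lies to its right, at 3.65 and 2.05.

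Other genes of the same pathways showed no common direction. Of 38 other measured genes of glucose transport, glycolysis and pyruvate use, 1 was 2-fold higher in both clones and 1 was 2-fold lower, and none passed limma, against 8 (21.1%) at an unadjusted p under 0.05 and 7 (18.4%) by limma with its prior from all genes, shares near the 17.5% and 17.8% of all genes. Gbe1, the glycogen branching enzyme gene and a HIF target, read 8.18 in mock against 9.45 in clone 4 and 9.34 in clone 10 (2.33-fold, limma adjusted p = 0.0606). Gpd1, a glycerol-3-phosphate dehydrogenase gene, read 7.54 in mock and 6.51 in each clone (limma adjusted p = 0.0557). Pcx, the pyruvate carboxylase gene, read 7.38 in mock against 8.70 in clone 4 and 8.24 in clone 10, more than 2-fold apart in clone 4 alone (limma adjusted p = 0.202). The glucose transporter gene Slc2a1 read 11.01, 11.13 and 11.05 in mock, clone 4 and clone 10 (limma adjusted p = 0.973). Slc16a3, the gene of the lactate exporter MCT4, read 7.03 in mock and 7.12 in each clone (limma adjusted p = 0.853). Slc16a1, of the same transporter family, read 11.09 in mock against 10.30 in clone 4 and 10.38 in clone 10. It was 1.69-fold lower (limma adjusted p = 0.0885).

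Of 38 other hypoxia genes none was 2-fold apart in both clones or passed limma, against 7 (18.4%) at an unadjusted p under 0.05 and 6 (15.8%) by limma with its prior from all genes, shares near the 17.5% and 17.8% of all genes. Vegfa, the angiogenic growth factor gene, read 9.23 in mock against 10.02 in clone 4 and 9.37 in clone 10 (limma adjusted p = 0.749). It was 1.73-fold above mock in clone 4 and 1.11-fold in clone 10. Car9, a carbonic anhydrase gene used as a marker of hypoxia, read 6.07 in mock and 6.23 in each clone. The 2 that were 1.5-fold higher in both clones were the collagen lysyl hydroxylase gene Plod1, at 9.76 in mock against 10.46 and 10.67, and the stanniocalcin gene Stc2, at 6.62 against 7.39 and 7.44. The median difference of both lists was 0 in each clone. For Ak4, an adenylate kinase gene and HIF target, the 2 probe sets disagreed. The set chosen, higher in the mean of the 3 arrays but not in mock, read 7.12, 6.98 and 7.12. The other read 8.66 in mock and 5.80 and 5.95 in the clones. By that other set Ak4 was more than 2-fold lower in both clones (-2.86 and -2.71), so its place among the genes not 2-fold apart rests on the set chosen.

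**Figure D5:**
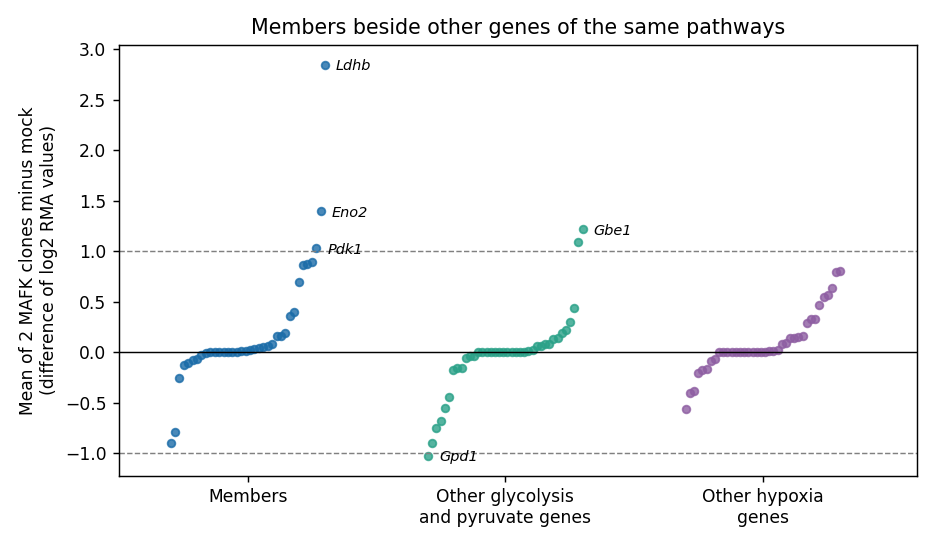
Mean of the 2 MAFK clones minus mock, in log2 RMA units, for the 36 members, 38 other glycolysis and pyruvate genes and 38 other hypoxia genes, ordered by size within each list. Names mark genes that differ from mock by 2-fold or more in both clones: Ldhb, Eno2, Pdk1, Gbe1 and Gpd1.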

How the data were processed

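Total RNA from 3 samples of NMuMG cells was labelled with the Ambion WT Expression Kit for Affymetrix GeneChip arrays, per the labels' protocols. The authors deposited log2 expression values per probe set; the submitters' processing notes name RMA, with version and filters not given in the sources used here. RMA corrects background, quantile normalizes the arrays and summarises probes. Of 28815 probe sets, 21780 had 1 gene symbol, 1605 several and 5430 none. A GRCm38.p6 gene table updated symbols by Entrez identifier (21689 matched). The highest-mean probe set stood for a gene.

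Differences between clones and mock were tested with limma 3.58.1 in R 4.3.3 across all 19935 genes (two-sided, Benjamini-Hochberg), with 1 residual degree of freedom per gene. This assumes that mock, measured once, varies as the clones do. Since 55.5% of genes had equal values in the clones, the prior (1.93 degrees of freedom, SD 0.0694) came from the genes whose clones differed; equal genes got the smallest standard error, 0.0690. Rose and fell mean at least 2-fold in both clones and an adjusted p under 0.05. The fit was also run on simulated data in which mock varied as the clones do, so that assumption was not tested. Alternatives changed the prior, the treatment of equal values, the low-level filter, normalization, centring, the probe set rule, chromosome shifts, the fold and the clone left out. The number of arrays limits the precision.

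Members, lists, the fit and the alternatives were chosen with earlier results of these data known. The naming rule took every measured member by role, with per-array values for those 1.5-fold or more from mock in both clones or 2-fold in 1 clone, and for Hif1a, Epas1, Arnt, Gapdh (not analysed here) and Ldha. From other lists it took genes 2-fold from mock in both clones, Slc2a1, Slc16a3, Vegfa and Car9, with Mafk as label check. Per-array values of other members, and Pfkfb2, Pcx, Slc16a1, Ak4, Plod1, Stc2 and marker genes, were added after their values were seen.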

Additional observations from a re-analysis of the deposited data

How the results depend on the processing

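With 1 mock array and a residual degree of freedom from 2 clones, calls rest on the assumed spread. Against 1 member past limma, 10 passed with the prior from all genes (2 of them rose; 17.8% of all genes passed), 5 with the arrays quantile normalized again (2 rose; 11.4% of all genes passed there), and 0 with low genes left out or with a minimum fold of 1.2. At a threshold of 1.5-fold, 8 members were apart from mock in place of 3. No member fell under any alternative run. The median difference in clone 4 and clone 10 was 0.0079 and 0.0045 with low genes left out, 0.0419 and 0.0357 after a second quantile normalization, 0.0329 and 0.0423 with the chromosome shift subtracted, and -0.0325 and -0.0300, below 0, with arrays centred on the median. Near-zero differences turned sign for Ldha after a second quantile normalization (0.0162), for Hif1a (-0.0359) and Arnt (-0.0364) with arrays centred on the median, and for Arnt (-0.0034) with the chromosome shift subtracted. Epas1, equal to mock, read below it under these 3 alternatives. Of 143 values of 13 named members under alternatives, 4 turned sign in this way, 9 came to pass the threshold and 2, both of Eno2, no longer passed. The cause of these changes was not tested. The lowest-mean probe set was an alternative added after the data were seen. Leaving out clone 4 or clone 10 left no test, and 3 or 4 members were then 2-fold apart.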
